A study of Mus musculus with 4 samples.

Results

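The 7 genes described here encode 2 cytokines of type 1 helper cells (*Ifng*, *Tnf*), their transcription factors (*Tbx21*, which encodes T-bet, *Eomes* and *Stat4*) and both chains of the IL-12 receptor (*Il12rb1* and *Il12rb2*). They were taken by symbol from the 32285 genes of the deposited tables, in which each of the 7 has 1 row. CD4+ T cells had been isolated from livers of male WT mice and of dKO mice, whose floxed alleles of Nr4a1 and Nr4a2 are deleted by a Cd4-Cre transgene, that is, in cells of the T lineage and not in the Tregs alone. Both groups had been fed the diet called CD, which is deficient in choline and holds 60 kcal% fat and 0.1% methionine, for 8 weeks, and the age of the mice is not given in the sources used here. Each genotype is 1 library of cells pooled from 2 mice, sequenced for RNA from the 5′ end and for T cell receptors, so no test between the genotypes was possible. All differences below compare these libraries, and the intervals in parentheses are exact 95% intervals that cover counting error only.

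IL-12 binds a receptor made of IL-12Rβ1, shared with the receptor for IL-23, and IL-12Rβ2, the chain through which STAT4 is recruited and phosphorylated. STAT4 and T-bet activate *Ifng*, and T-bet in turn sustains *Il12rb2*. Eomesodermin, the T-box relative of T-bet, is best known from CD8+ T cells and NK cells and is also found in CD4+ T cells with cytotoxic or regulatory features. T-bet is further found in a part of the Tregs. IFN-γ and TNF from hepatic T cells act on macrophages, hepatocytes and stellate cells in steatohepatitis.

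After filtering, the WT-labelled library had 10556 cells and 23437516 UMIs (unique molecular identifiers, 1 per captured RNA molecule), and the dKO-labelled library had 17462 cells and 37794986 UMIs. The median depth was 1679 and 1685 UMIs per cell. The targeted genes went against the labels, since *Nr4a1* was at 725 CPM (UMIs of the gene per 1000000 UMIs of the same cells) in the WT-labelled library and 1659 CPM in the dKO-labelled library. Whether these UMIs come from intact or from recombined alleles cannot be told apart in a count per gene. The libraries shared 242 cell barcodes, and of the 25 of these with a TRB contig in both libraries 0 carried the same TRB chain. Cells were assigned to classes by marker genes that include none of the 7 genes. T cells, with a *Cd3d*, *Cd3e* or *Cd3g* UMI or a TRB contig, made up 7653 and 12006 cells. *Cd4* stood at 252 and 868 CPM in them and *Cd8a* at 0.0593 and 0.284 CPM, so *Cd8a* was near 0 in both and the *Cd4* level differed between the libraries. The isolates also held cells with plasmacytoid dendritic cell (pDC) markers, 1629 and 4087 in number, and myeloid cells, 333 and 479.

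The regions upstream of *Ifng* and *Il12rb2* are shown because the T-box and STAT factors among the 7 genes are known to act on these genes. Both runs are the 250 bases before the start of transcription on GRCm38.p6 (RefSeq), 5′ to 3′ on the strand of the gene, and capitals mark the letters TTCNNNGAA, a STAT motif, and TCACAC, a T-box half-site, searched on both strands.
Ifng, chr10:118440796-118441045, plus strand: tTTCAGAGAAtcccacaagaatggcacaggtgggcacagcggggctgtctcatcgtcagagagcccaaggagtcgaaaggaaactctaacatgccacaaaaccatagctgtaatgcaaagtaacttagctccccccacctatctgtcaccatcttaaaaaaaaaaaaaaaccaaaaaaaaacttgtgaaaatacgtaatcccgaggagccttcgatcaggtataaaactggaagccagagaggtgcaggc
Il12rb2, chr6:67376189-67376438, minus strand: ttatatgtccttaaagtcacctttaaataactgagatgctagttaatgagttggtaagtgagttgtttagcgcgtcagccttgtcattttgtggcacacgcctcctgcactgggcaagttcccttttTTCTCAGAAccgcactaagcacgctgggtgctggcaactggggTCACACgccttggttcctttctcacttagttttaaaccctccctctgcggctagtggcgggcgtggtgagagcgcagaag
The STAT letters begin 249 bases upstream of *Ifng* and 123 bases upstream of *Il12rb2*, and the T-box letters begin 80 bases upstream of *Il12rb2*. Sequences were matched for 6 of the 7 genes (7 windows, since *Stat4* has 2 starts). The STAT letters were in 2 of these windows and in 7.02% of 32851 mouse windows of the same length, and the T-box letters in 1 and in 12.3%. AAAGGTCA, the NBRE bound by Nr4a receptors, was in 0 of the 7 windows and in 1.34% of all, and the NFAT core TTTCC in 5 and in 55.6%. These matches describe letters and do not show binding.

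Over all filtered cells, *Ifng*, the gene for IFN-γ (ENSMUSG00000055170, chromosome 10, 118441046 to 118445892), stood at 204 CPM (198 to 210) in the WT-labelled library and 54.2 CPM (51.9 to 56.6) in the dKO-labelled library, a 3.77-fold lower level. *Tnf* (ENSMUSG00000024401, chromosome 17, 35199381 to 35202007), the gene for tumor necrosis factor, was at 75.8 and 58.7 CPM, 1.29-fold lower. *Tbx21* (ENSMUSG00000001444, chromosome 11, 97098071 to 97115331) was at 103 and 53.8 CPM, 1.91-fold lower. *Eomes* (ENSMUSG00000032446, chromosome 9, 118478212 to 118486132) went the other way, from 5.25 CPM (4.36 to 6.26) to 15.4 CPM (14.2 to 16.7), 2.93-fold higher. *Stat4* (ENSMUSG00000062939, chromosome 1, 51987148 to 52107189), the signal transducer of the IL-12 receptor, was at 392 and 214 CPM, 1.83-fold lower. The receptor chains differed in direction. *Il12rb1* (ENSMUSG00000000791, chromosome 8, 70808449 to 70821424) was at 14.2 and 20.1 CPM, 1.41-fold higher, while *Il12rb2* (ENSMUSG00000018341, chromosome 6, 67291318 to 67376188) was at 92.7 and 44.8 CPM, 2.07-fold lower. These positions are from GENCODE M21 on GRCm38.

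Of the 7 genes, 2 were at least 2-fold lower in the dKO-labelled library, against a background of 5.16% of the 13112 genes with at least 50 UMIs, and 1 was at least 2-fold higher, against 5.58%. The median log2 ratio of the 7 genes, dKO over WT, was −0.87, and that of all genes −0.02. Sums over all cells mix the share of UMIs that a class holds with the level within it, so each difference was divided by class. Classes were weighted by their share of the UMIs, which depends on both the number of cells and their depth. Differences of levels within classes made up 65.6% of the *Ifng* difference, 60.5% of that of *Tbx21*, 66.0% of that of *Stat4* and 71.3% of that of *Il12rb2*, and the changed shares of the classes made up the rest. For *Tnf* the within-class part was 97.7%. For *Eomes* it was 165%, since the shares of the classes alone would have lowered it.

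**Figure D1:**
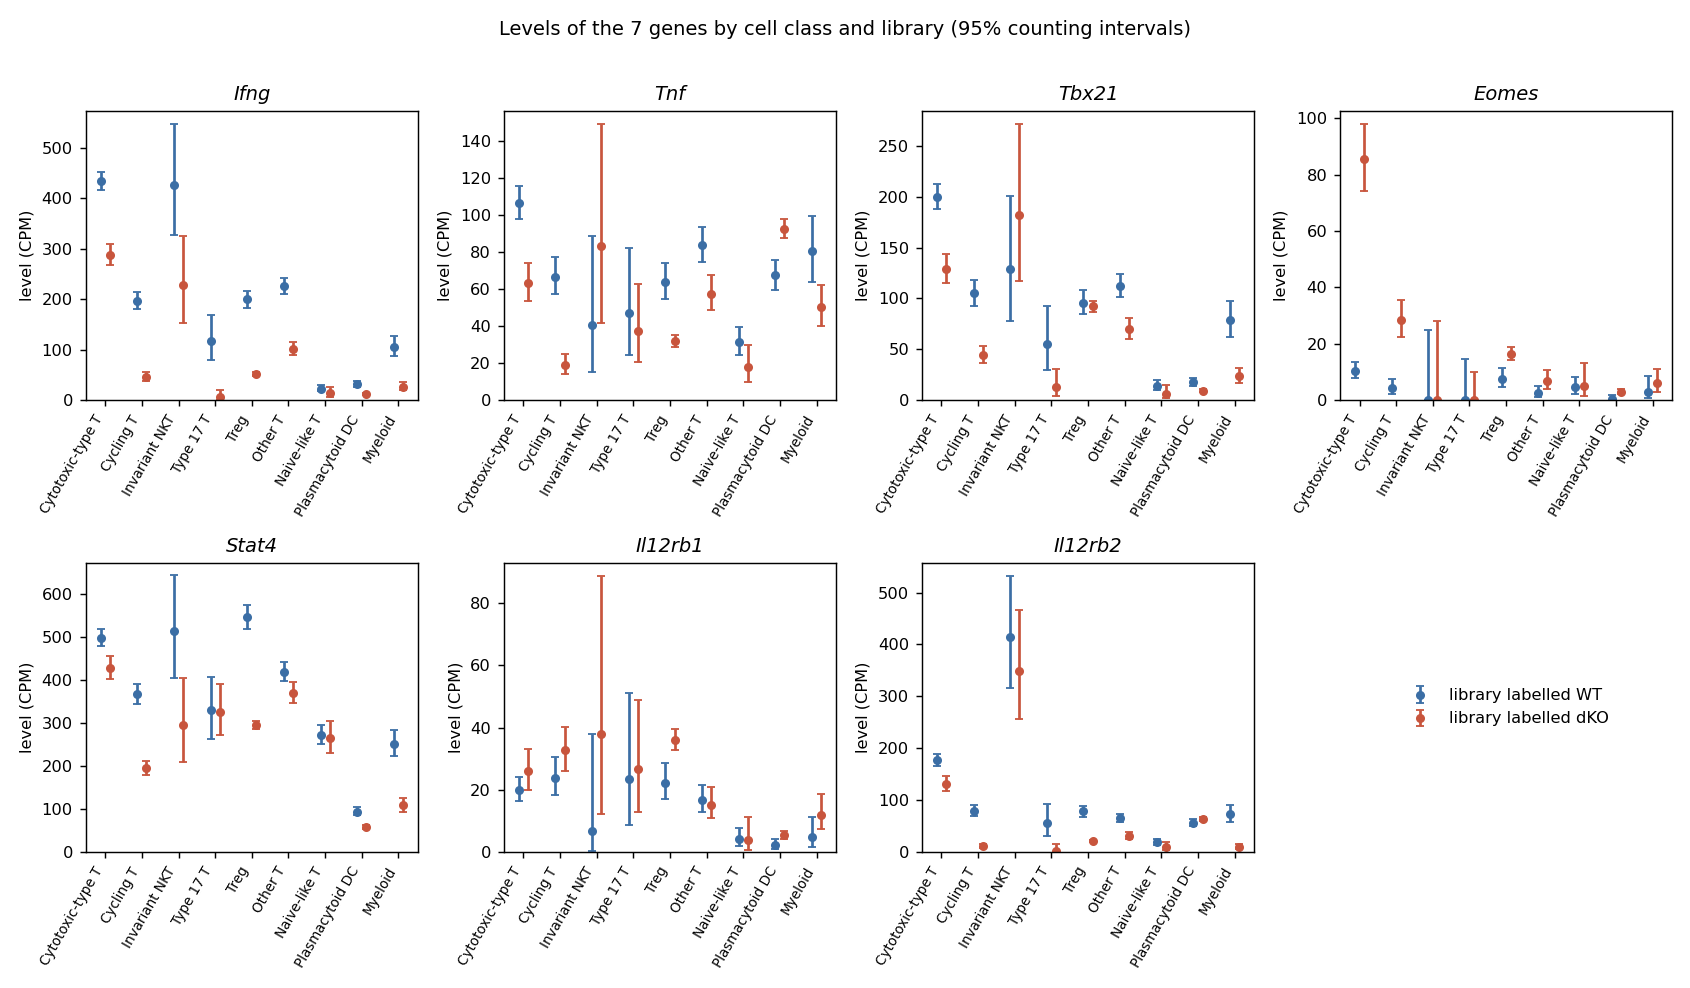
Level (CPM, linear axes from 0) of each of the 7 genes in 9 cell classes of the WT-labelled library (blue) and the dKO-labelled library (red). Points are UMIs summed over the cells of a class and bars are 95% counting intervals. *Ifng* was highest in cytotoxic-type T cells and invariant NKT cells of both libraries, *Eomes* in cytotoxic-type T cells of the dKO-labelled library, and *Tnf* was higher in the dKO-labelled library in pDCs.

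The class with the most *Ifng* UMIs in either library was the cytotoxic-type T cells, gated by 2 of *Nkg7*, *Ccl5*, *Klrk1*, *Fasl*, *Xcl1* and *Klrd1* without a Treg, type 17, cycling or NKT assignment. It held 2501 cells (23.7% of the WT-labelled library) and 1690 cells (9.68% of the dKO-labelled library), with 47.5% and 34.7% of all *Ifng* UMIs. Compared with naive-like T cells of the same library, *Ifng* was 19-fold and 20.5-fold higher there, *Tbx21* 14.3-fold and 20.1-fold, *Il12rb2* 9.52-fold and 14.8-fold, *Il12rb1* 4.69-fold and 6.78-fold and *Tnf* 3.39-fold and 3.54-fold. *Eomes* was 2.22-fold higher in the WT-labelled library and 16.8-fold higher in the dKO-labelled library. *Stat4* differed least, 1.83-fold and 1.61-fold. Thus 6 of the 7 genes were at least 2-fold higher in each library, against 11% and 11.4% of all genes tested, and 0 were lower, against 2.55% and 2.67%.

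Within cytotoxic-type T cells, the *Ifng* level was 434 CPM (417 to 453) in the WT-labelled library and 288 CPM (267 to 310) in the dKO-labelled library, and the log2 ratio was −0.59 (−0.72 to −0.47). *Tnf* was at 106 and 63.2 CPM (log2 ratio −0.75, −1.01 to −0.49). *Tbx21* was at 200 and 128 CPM (−0.64, −0.82 to −0.46), *Il12rb2* at 177 and 132 CPM (−0.43, −0.62 to −0.25) and *Stat4* at 500 and 429 CPM (−0.22, −0.32 to −0.12). The interval of each of these 5 genes lay below 0. To keep 1 cell per clone, the first listed cell of each clone was taken over all classes, so a clone counted only in that cell's class. With 1 cell kept per clone, among cells with a TRB contig, the intervals of *Tbx21* (−0.06, −0.48 to 0.35), *Stat4* and *Il12rb2* included 0. With every cell that had a TRB contig, those of *Stat4* (−0.28 to 0.07) and *Il12rb2* (−0.44 to 0.17) also included 0. That of *Tbx21* did not (−0.68 to −0.08). *Il12rb1* was at 19.9 and 25.9 CPM, with an interval from −0.09 to 0.85 that includes 0. *Eomes* was at 10.3 CPM (7.75 to 13.5) and 85.5 CPM (74.4 to 97.9), 8.29-fold higher in the dKO-labelled library, and with 1 cell per clone its log2 ratio was 0.90 (−0.42 to 2.15). By the 2-fold measure 0 of the 7 genes were lower, against 2.76% of the 8796 genes tested in this class, and 1 was higher, *Eomes*, against 1.27%. In cells thinned to 2000 UMIs, where the *Ifng* ratio was −1.12, 2 of the 7 genes were past 2-fold in place of 1. The median log2 ratio of the 7 genes was −0.43 and that of all genes −0.08.

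Cells with an *Ifng* UMI were counted at an equal depth of 2000 UMIs, which left 1005 of 2501 and 257 of 1690 cytotoxic-type T cells. The share was 35.3% (32.4 to 38.4) in the WT-labelled library and 23.0% (18.0 to 28.6) in the dKO-labelled library. Without thinning it was 35.0% and 20.5%, at median depths of 1759 and 1308 UMIs. In pDCs, which are not known to make IFN-γ, the share was 3.42% and 1.57% at equal depth, and in naive-like T cells 2.38% and 1.05%. *Ifng* was unevenly spread among cells: before thinning, 117 cytotoxic-type T cells of the WT-labelled library held 5 or more *Ifng* UMIs, with up to 48 in 1 cell, against 26 cells and up to 19 UMIs in the dKO-labelled library. At equal depth, *Tbx21* was found in 28.1% and 19.5% of these cells, *Il12rb2* in 24.2% and 17.9%, *Tnf* in 16.2% and 8.56% and *Eomes* in 1.29% and 8.17%. Cytotoxic-type T cells with and without an *Ifng* UMI had overlapping intervals for the other genes compared. In the WT-labelled library, *Tbx21* was detected in 29.6% (24.9 to 34.6) of the cells with and 27.2% (23.8 to 30.8) of those without an *Ifng* UMI, and *Il12rb2* in 24.8% and 23.8%. In the Treg class of that library, *Tbx21* was in 26.4% (18.8 to 35.2) of the cells with and 14.6% (11.4 to 18.3) of those without an *Ifng* UMI, and in the dKO-labelled library in 20.4% (14.1 to 28.0) and 14.4% (12.9 to 16.1), which overlap. *Ncr1*, a gene of NK cells, was at 9.94 and 5.27 CPM in cytotoxic-type T cells, and the part of NK cells in these levels was not tested.

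The Treg class was gated by a *Foxp3* UMI or by 3 of *Ikzf2*, *Il2ra*, *Ctla4*, *Tigit* and *Tnfrsf4*, and held 969 and 6959 cells. The 7 genes did not all differ in the same direction in it. *Ifng* was at 200 and 51.1 CPM, 3.91-fold lower in the dKO-labelled library, *Il12rb2* at 78.0 and 20.7 CPM, 3.76-fold lower, *Tnf* at 64.0 and 31.9 CPM, 2.01-fold lower, and *Stat4* at 548 and 296 CPM, 1.85-fold lower. *Tbx21* stood at 95.8 CPM (84.4 to 108) and 92.1 CPM (86.8 to 97.7), a log2 ratio of −0.06 with an interval from −0.25 to 0.14. *Il12rb1* was 1.62-fold and *Eomes* 2.23-fold higher. Here 3 of the 7 genes were at least 2-fold lower, against 4.11% of 10099 genes, and 1 was higher, against 4.65%.

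Since 552 of the 969 and 3806 of the 6959 gated Tregs had no *Foxp3* UMI, the cells with one were described separately. They numbered 417 and 3153 in this class. Among them *Ifng* was at 122 CPM (102 to 145) in the WT-labelled library and 35.1 CPM (30.5 to 40.2) in the dKO-labelled library, *Il12rb2* at 46.0 and 17.8 CPM and *Stat4* at 438 and 284 CPM. *Tnf* was at 46.0 and 30.1 CPM there, 1.53-fold lower and so no longer past 2-fold, and *Eomes* at 3.84 and 6.39 CPM, with an interval for the log2 ratio that includes 0 (0.74, −0.74 to 2.68). In the same cells *Tbx21* was higher in the dKO-labelled library, 64.3 CPM (49.8 to 81.6) and 91.0 CPM (83.5 to 99.0), with a log2 ratio of 0.50 (0.13 to 0.89). *Il12rb1* did not differ beyond counting error (0.06, −0.46 to 0.62). In the gated cells without a *Foxp3* UMI, *Tbx21* was instead at 116 and 93.3 CPM (−0.31, −0.55 to −0.07), and *Eomes* at 9.63 and 26.3 CPM. The class held 9.18% and 39.9% of all cells, and 54.8% of all *Tbx21* UMIs of the dKO-labelled library came from the Treg class, against 10.7% in the WT-labelled library, and for *Il12rb1* these shares were 57.4% and 18.0%.

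At the equal depth of 2000 UMIs, which left 553 and 2006 cells of the Treg class, the same genes were followed cell by cell. *Ifng* was detected in 21.9% (18.5 to 25.6) and 7.08% (5.99 to 8.29) of these cells, *Il12rb2* in 13.2% and 4.49% and *Stat4* in 60.2% and 41.4%, and the intervals of the libraries did not overlap. *Tbx21* was detected in 17.2% (14.1 to 20.6) and 14.9% (13.3 to 16.5), with intervals that overlap, and *Il12rb1* in 3.44% and 6.88%. A cell without a *Foxp3* UMI enters this class through 3 other markers, so the gate itself shapes any split by *Foxp3* within it, and the following values are a description. In the WT-labelled library, *Foxp3* was in 15.7% (9.73 to 23.4) of the cells with and 32.2% (27.8 to 36.8) of those without an *Ifng* UMI, and in the dKO-labelled library in 28.9% and 45.9%. *Il12rb2* went with *Ifng* in both, in 24% and 10.6% of the cells with and 10.2% and 4.02% of those without an *Ifng* UMI. *Tbx21* showed no such split in the dKO-labelled library, where *Foxp3* was in 45% (39.2 to 50.8) of the cells with and 44.6% (42.2 to 47.0) of those without a *Tbx21* UMI. In the WT-labelled library these shares were 20% (12.5 to 29.5) and 30.3% (26.2 to 34.8), with intervals that overlap.

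**Figure D2:**
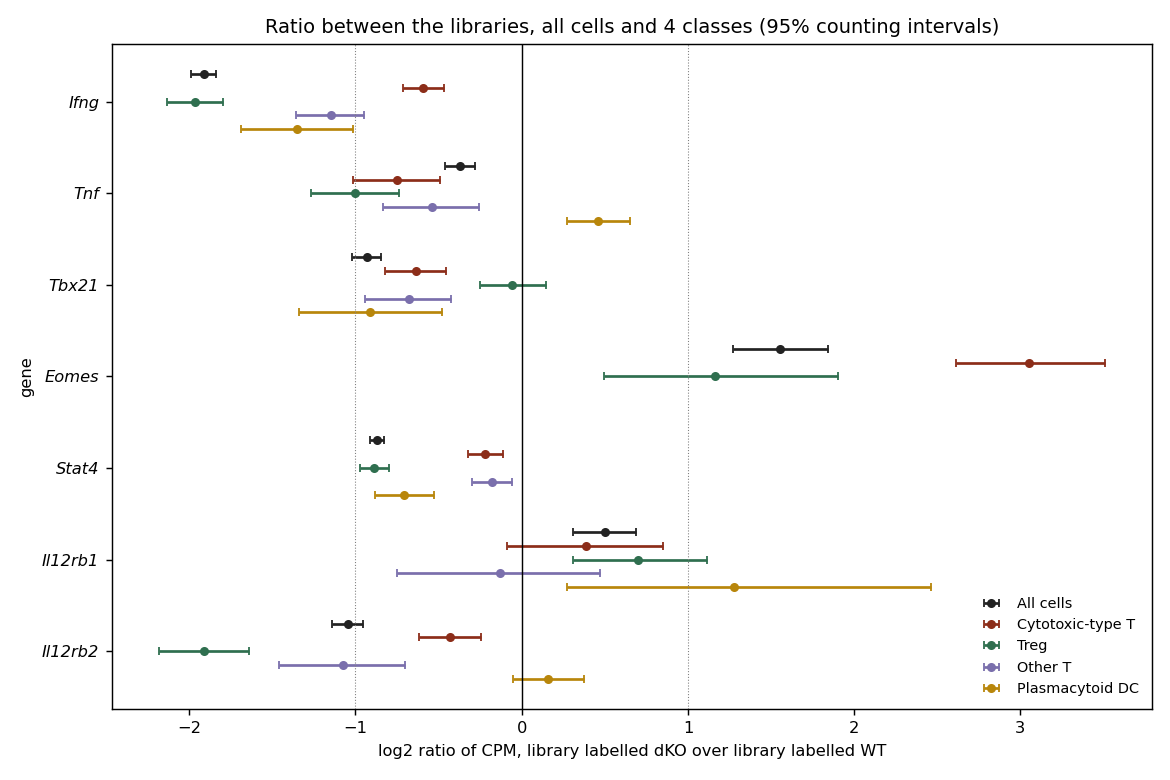
Log2 ratio of CPM, library labelled dKO over library labelled WT, for the 7 genes in all cells and 4 classes, with 95% counting intervals and dotted lines at 2-fold; a gene with under 50 UMIs in a class is not drawn. *Ifng* lay below 0 in each class drawn, *Tbx21* lay at −0.06 in Tregs, and *Tnf* lay above 0 in pDCs.

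In cycling T cells (650 and 517 cells), *Ifng* was 4.28-fold lower in the dKO-labelled library, at 197 and 45.9 CPM, and *Il12rb2* 7.20-fold lower, at 79.3 and 11 CPM. *Eomes* went from 4.21 to 28.5 CPM there. Type 17 T cells (111 and 210 cells) had 30 *Ifng* UMIs in the WT-labelled library (118 CPM) and 2 in the dKO-labelled library (5.32 CPM), and 14 and 1 *Il12rb2* UMIs, while *Stat4* was nearly equal at 330 and 327 CPM. STAT4 also signals downstream of the IL-23 receptor. Invariant NKT cells, called by their TRAV11-TRAJ18 chain, were few (52 and 56 cells). Their *Il12rb2* level, 414 CPM (316 to 531) and 349 CPM (256 to 466), was above that of each other class drawn in both libraries, and its interval for the ratio included 0 (−0.83 to 0.33). No *Eomes* UMI was found in them, which allows up to 20.3 CPM and 22.8 CPM. The remaining T cells (2337 and 2097) had *Ifng* at 226 and 102 CPM and *Il12rb2* at 65.0 and 30.8 CPM, so that 2 of 6 genes tested were at least 2-fold lower, against 1.84% of all, and 0 were higher, against 2.19%. Of the 4 genes that could be tested in naive-like T cells (1033 and 477 cells), 1 was at least 2-fold lower (*Il12rb2*, 18.6 and 8.93 CPM), against 2.15% of all, with an interval that includes 0 (−2.46 to 0.10). None was higher, against 0.992%, and *Stat4* stood at 273 and 267 CPM.

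Outside the T cells, pDCs carried *Tnf* and *Il12rb2*. This class held 57.5% of the *Tnf* and 51.1% of the *Il12rb2* UMIs of the dKO-labelled library, against 15.6% and 10.6% in the WT-labelled library. Its share of the UMIs of all genes was 36.4% in the dKO-labelled library and 17.5% in the WT-labelled library. *Tnf* was at 67.4 CPM (59.7 to 75.8) and 92.7 CPM (87.7 to 97.9), with a log2 ratio of 0.46 (0.27 to 0.65), and *Il12rb2* at 56.2 and 62.8 CPM (0.16, −0.05 to 0.38). Of the 6 genes tested here, 1 was at least 2-fold lower (*Ifng*), against 2.41%, and 1 higher (*Il12rb1*), against 2.11%. A part of these droplets also held T cell RNA, and 14.6% and 20% of the class were marked as doublets. In the 1206 and 3080 pDCs without a *Cd3d*, *Cd3e* or *Cd3g* UMI and without a TRB contig, *Ifng* was at 4.36 and 2.14 CPM and *Tbx21* at 2.78 and 1.07 CPM. *Tnf* stayed at 67.1 and 98.6 CPM (log2 ratio 0.56, 0.32 to 0.80). *Il12rb2* stayed at 42.1 and 66.7 CPM, higher in the dKO-labelled library (0.67, 0.37 to 0.98). *Stat4* was at 30.9 and 25.9 CPM in these droplets. *Il12rb1*, the gene counted as higher in the class, was at 1.19 and 1.82 CPM from 3 and 17 UMIs (0.61, −1.17 to 3.03), so that its interval included 0 there. *Ifng* and *Tbx21* were thus near 0 in droplets without CD3 UMIs or a TRB contig, while *Tnf* and *Il12rb2* were not. Such droplets were not free of T cell RNA, since *Foxp3* had 1 and 29 UMIs in them. The median depth of these droplets was 1352 and 2897 UMIs, and the part of depth in these differences was not tested.

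**Figure D3:**
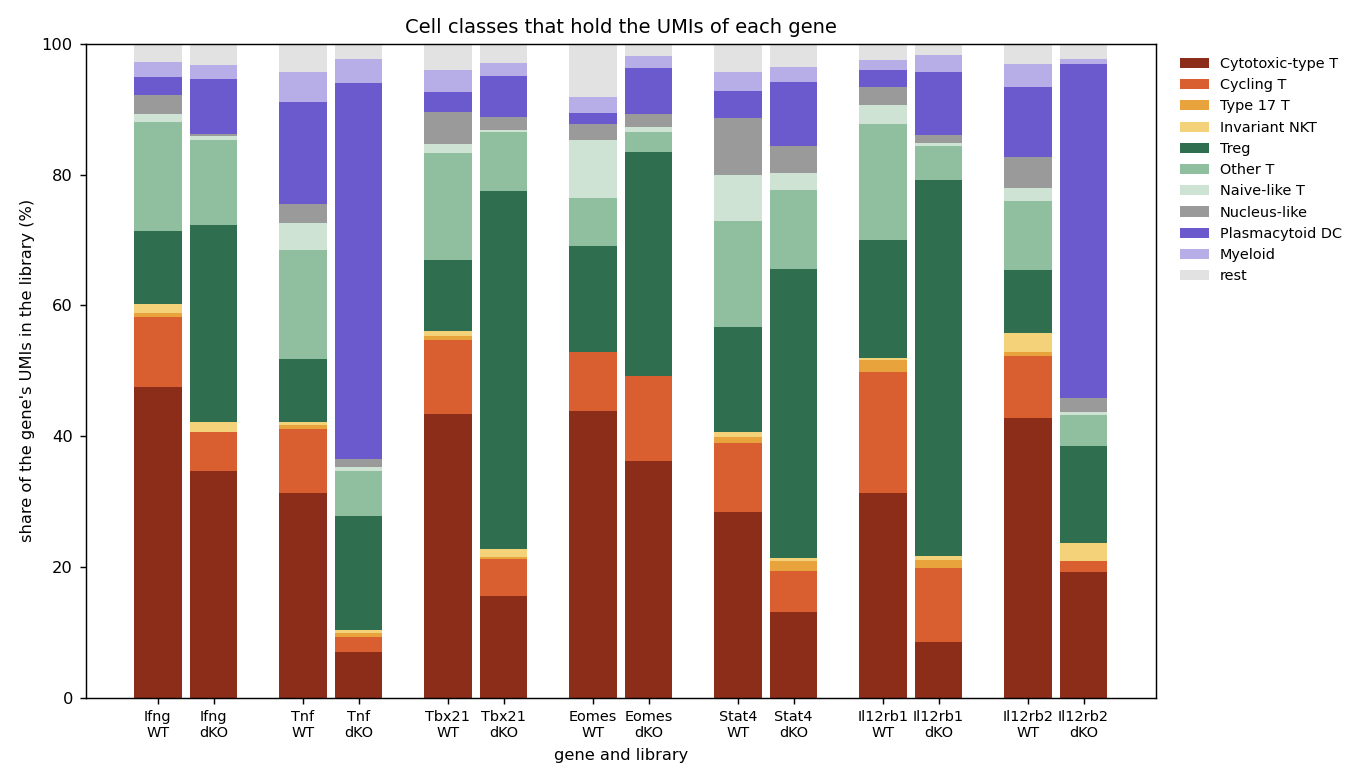
Share of the UMIs of each gene that came from each cell class, as stacked bars that sum to 100% per gene and library (WT left, dKO right). Cytotoxic-type T cells held 47.5% of the *Ifng* UMIs of the WT-labelled library and 34.7% of the dKO-labelled library, and pDCs held 57.5% of the *Tnf* UMIs of the dKO-labelled library.

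T cell receptors tied the 7 genes to clones, here all cells of a library with the same TRB V gene, J gene and CDR3 nucleotides. TRB chains were found in 3455 and 4096 cells, and each library had 15 clones of 20 or more cells, with 610 and 1046 cells in all. Shares in clones were counted without thinning, and the median depth of these large clones was 1996 and 1524 UMIs. Cells of a clone share an ancestor and clones of a library share a pool of mice, so clones are not replicates of a genotype. After these values had been seen, the clones were sorted by whether at least 20% of their cells had an *Eomes* UMI or at least 20% a *Foxp3* UMI. In the WT-labelled library, 15 of 15 large clones met neither. *Ifng* was detected in 23.3% to 63.3% of their cells (median clone 36.7%), *Tbx21* in 20% to 48.3% (30.4%), *Il12rb2* in 5% to 58.6% (16.2%) and *Eomes* in 0% to 3.33%. In the dKO-labelled library, 9 large clones with 804 cells were *Foxp3* clones. *Ifng* was detected in 0% to 10.3% of their cells (1.16%), below the lowest of the WT clones, and *Tbx21* in 6.67% to 31.2% (18.1%), so that the ranges of *Tbx21* overlapped. A further 4 clones with 187 cells were *Eomes* clones, and 2 clones with 55 cells were neither, with *Ifng* in 20% and 26.7% and *Il12rb2* in 24% and 13.3% of their cells.

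*Ifng*, *Il12rb2*, *Tbx21* and *Eomes* were also set against clone size. In the WT-labelled library, *Ifng* was detected in 16.6% (14.9 to 18.4) of the 1802 cells whose TRB chain was seen once and in 35.1% (31.3 to 39.0) of the 610 cells of large clones. In the dKO-labelled library it was detected in 7.89% (6.61 to 9.34) of 1571 and 7.84% (6.28 to 9.64) of 1046 such cells. *Il12rb2* went from 12.7% to 20.8% in the former and from 8.47% to 3.44% in the latter. *Tbx21* was more often detected in large clones of both, at 15.1% and 30.8% in the former and 12.2% and 16.2% in the latter. *Eomes* was in 0.832% and 0.492% of these cells in the former and in 1.4% and 7.93% in the latter. The median depth was 2304 and 1996 UMIs in the former and 1906 and 1524 UMIs in the latter, so the large clones were the shallower cells in both. For the other 3 genes, the WT-labelled library had *Tnf* in 10.9% and 17.9%, *Stat4* in 49.3% and 51.6% and *Il12rb1* in 2.94% and 5.25% of these cells. The dKO-labelled library had *Tnf* in 6.75% and 4.59%, *Stat4* in 45.2% and 28.4% and *Il12rb1* in 6.05% and 5.35%. Clones of sizes between these, of 2 to 4 and of 5 to 19 cells, did not always lie between them. Their *Ifng* shares were 32.4% and 34.1% in the WT-labelled library and 9.78% and 11.1% in the dKO-labelled library. Their *Eomes* shares were 2.04% and 1.27% in the former and 1.21% and 2.15% in the latter. Of the 1046 cells of large clones in the dKO-labelled library, 804 were in the 9 *Foxp3* clones, and the largest of these clones held 475. Of the 83 such cells with an *Eomes* UMI, 79 were in the 4 *Eomes* clones. The intervals count cells of a clone as independent, so they do not cover differences between clones. Shares in the large clones of this library thus rest on a few clones, and the part of clone size in them was not tested.

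The TRB CDR3 sequences of the 4 *Eomes* clones are shown since these clones carry most of the clonal *Eomes* signal, beside the largest clone of each library. They are printed 5′ to 3′ as deposited, in lower case throughout, from the codon of the first cysteine on.
dKO clone 4, 74 cells, TRBV31 and TRBJ1-1: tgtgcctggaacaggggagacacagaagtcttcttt
dKO clone 5, 71 cells, TRBV19 and TRBJ2-7: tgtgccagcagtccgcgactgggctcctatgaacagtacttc
dKO clone 12, 22 cells, TRBV13-3 and TRBJ2-7: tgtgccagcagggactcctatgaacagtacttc
dKO clone 15, 20 cells, TRBV5 and TRBJ1-4: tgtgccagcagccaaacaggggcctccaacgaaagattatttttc
dKO clone 1, 475 cells, TRBV13-1 and TRBJ2-4, largest *Foxp3* clone: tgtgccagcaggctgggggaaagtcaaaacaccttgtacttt
WT clone 1, 87 cells, TRBV13-1 and TRBJ2-2, largest of the WT-labelled library: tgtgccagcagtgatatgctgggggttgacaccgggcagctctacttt
*Eomes* was detected in 39.2% of the cells of dKO clone 4, 53.5% of clone 5, 36.4% of clone 12 and 20% of clone 15. *Ifng* was detected in 25.7%, 29.6%, 13.6% and 25% of the same clones, *Tbx21* in 9.46%, 4.23%, 4.55% and 10%, *Stat4* in 33.8%, 29.6%, 31.8% and 30%, and *Il12rb2* in 0%, 1.41%, 4.55% and 0%. These clones combined *Ifng* with few *Tbx21* and *Il12rb2* UMIs, whereas each of the 15 large WT clones had *Tbx21* in at least 20% of its cells. *Gzmk*, the gene for granzyme K, was detected in 63.6% to 97.2% of their cells, *Lag3*, an inhibitory receptor, in 20% to 59.5%, and *Foxp3* in 4.05% to 7.04%. The *Eomes* signal was concentrated, since 51.9% of the 129 cells with a TRB chain and an *Eomes* UMI in the dKO-labelled library belonged to 2 clones and 61.2% to 4, of 46 clones in all. In the WT-labelled library, 20% of the 35 such cells belonged to 2 clones and 28.6% to 4, of 29. For *Ifng*, 2 clones held 11.1% of such cells in the dKO-labelled library and 6.63% in the WT-labelled library.

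**Figure D4:**
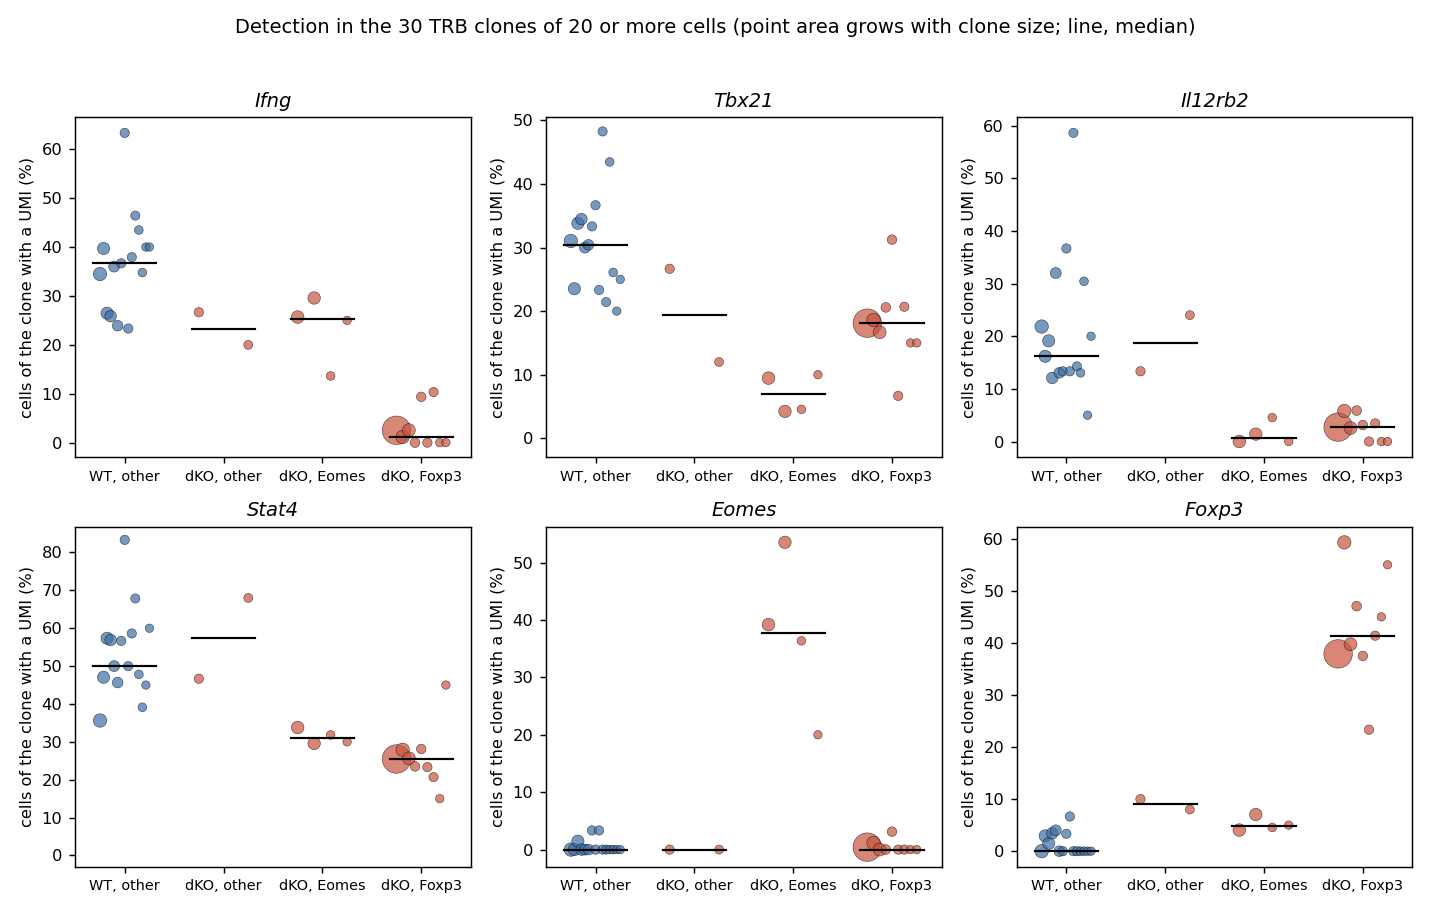
Share of cells with a UMI of the named gene (%) in each of the 30 TRB clones of 20 or more cells, by library and by the kind of clone (blue, library labelled WT; red, library labelled dKO); the area of a point grows with the size of the clone and the line is the median clone. The 4 *Eomes* clones have *Ifng* in 13.6% to 29.6% and *Tbx21* in 4.23% to 10% of their cells, and the 9 *Foxp3* clones have *Ifng* in 0% to 10.3%. *Eomes* and *Foxp3* set the kinds and are shown as a description. Cells were not thinned to equal depth.

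The clone values were followed by those of single cells. Among cytotoxic-type T cells with an *Eomes* UMI (26 and 155 cells), *Tbx21* was at 236 CPM from 17 UMIs in the WT-labelled library and 26.0 CPM from 6 UMIs in the dKO-labelled library, and *Ifng* at 513 and 121 CPM. When cells with an *Eomes* UMI were left out, the *Ifng* ratio in cytotoxic-type T cells was −0.50 (−0.63 to −0.38) and that of *Tbx21* −0.52 (−0.71 to −0.34), so both remained below 0. Leaving out the 4 *Eomes* clones gave −0.57 and −0.61. Neither step removes every cell of this kind. *Eomes* was detected in 42.2% of the cells of the *Eomes* clones, and 28.5% of the cytotoxic-type T cells of the dKO-labelled library had a TRB contig. What the cells left in add to these ratios was not tested. With 1 cell kept per clone, the *Ifng* ratio in this class was −0.56 (−0.87 to −0.26), that of *Tbx21* −0.06, that of *Stat4* 0.01 (−0.22 to 0.24) and that of *Il12rb2* 0.31 (−0.08 to 0.70). With every cell that had a TRB chain, these ratios were −0.73, −0.37, −0.10 and −0.13. The *Eomes* ratio was 2.63 with every such cell and 0.90 with 1 per clone. In the Treg class, 1 cell per clone left *Ifng* at −1.41 (−1.82 to −1.01) and *Il12rb2* at −1.08 (−1.64 to −0.53).

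The wider pathway was described with lists. Of 28 listed type 1 pathway genes, 20 had at least 50 UMIs in cytotoxic-type T cells, and 0 were 2-fold lower and 0 higher, with a median log2 ratio of 0.18. Over all genes tested in this class, 2.76% were lower, 1.27% were higher and the median was −0.08. The list ran from *Ifngr2*, a chain of the IFN-γ receptor (22.9 and 12.2 CPM, −0.92), to *Socs3*, an inhibitor of cytokine signaling (80.1 and 160 CPM, just under 2-fold). *Cxcr3*, a chemokine receptor that depends on T-bet, was at 257 and 212 CPM, and *Runx3*, a partner of T-bet at *Ifng*, at 183 and 163 CPM. In the Treg class 22 genes were tested, 2 were lower (*Ifngr2* and *Il18rap*, a chain of the IL-18 receptor, at 63.6 and 31.2 CPM) and *Id2*, an inhibitor of E proteins, was higher (335 and 778 CPM), against 4.11% and 4.65% of all genes tested in the class. Of the 10 genes of the TNF axis, 0 were past 2-fold in cytotoxic-type T cells, with *Zfp36*, whose protein degrades *Tnf* mRNA, lowest (759 and 383 CPM, −0.99), and 1 was lower in Tregs (*Lta*, lymphotoxin α, 25.9 and 10.2 CPM). Of 10 genes that IFN-γ induces, 8 were tested in the Treg class, where *Ifng* was 3.91-fold lower. Of these, 0 were 2-fold lower and 2 were higher, with a median log2 ratio of 0.61, against 0.01 for all genes. The lowest was *Irgm1*, an immunity-related GTPase and the only one below 0 (45.8 and 28.9 CPM). The highest was *Gbp5*, which encodes a guanylate-binding protein (21.1 and 61.0 CPM). Of the genes of opposing helper programs, 4 could be tested in cytotoxic-type T cells and 0 were past 2-fold, and in Tregs 1 of 9 was higher (*Il13*, 2.22 and 5.04 CPM from 6 and 61 UMIs, with an interval of −0.02 to 2.69 that includes 0).

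Over the 20 sums of a class and library with at least 100 cells, the genes most like each of the 7, by Pearson correlation of log2(CPM + 10) among 8602 genes, were as follows. For *Ifng* they were *Zfp683*, which encodes the residency factor Hobit (r = 0.91), *Fasl* (0.91), itself a gate marker, and *Dusp2* (0.90). For *Tbx21* they were *Rgs3* (0.96), *Il18rap* (0.93) and *Socs2* (0.93), and for *Stat4* they were *Tnfaip3* (0.96), *Ptpn22* (0.96) and *Akna* (0.94). *Tnf* was nearest to *Runx3* (0.85), *Il12rb2* (0.83) and *Adgre5* (0.82), and *Il12rb2* to *Epsti1* (0.88), *Itga1* (0.84) and *Tnf* (0.83). *Eomes* was nearest to *Gzmk* (0.76), *Ccl5* (0.75), a gate marker, and *Pvrig* (0.75). *Il12rb1* was nearest to *Slc39a4* (0.90), *Tmem154* (0.89) and *Prkar1a* (0.89). Among the 7 genes, *Ifng* and *Tbx21* were the closest pair (0.86), and *Tnf* and *Il12rb1* the farthest (−0.14). The points share libraries and depth, so these values are a description.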

How the data were processed

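The authors deposited, for each of the 2 libraries, UMI counts per gene and cell from Cell Ranger 7.0.1 (version from the submitters' processing notes; mm10, 10x 5′ kit), without normalization and limited to called cells, and a table of productive receptor contigs. Whether intronic reads were counted is not given in the sources used here. A cell was kept if it had over 200 detected genes and a mitochondrial share below 5%. Classes were gated by marker UMIs in a fixed order (plasmacytoid, myeloid, mature dendritic, B, ILC3-type, droplets with under 7% ribosomal protein counts, then T cells: invariant NKT, cycling, Treg, type 17, cytotoxic-type, naive-like, other), 2 markers per gate (3 for myeloid). CPM are UMIs of a gene per 1000000 UMIs of all genes, summed over the cells of a class. Intervals are Poisson for CPM, conditional binomial for ratios and Clopper-Pearson for shares; a count of 0 allows up to 3 UMIs. For shares given at equal depth, each cell was thinned to 2000 UMIs, and cells below that depth were dropped. Shares within clones and by clone size were counted without thinning. A gene with at least 50 UMIs over both libraries was tested against the 2-fold measure. Python 3.11.15, numpy 2.4.6, scipy 1.17.1, scanpy 1.11.5 and, for TMM factors alone, edgeR 4.0.16 in R 4.3.3 were used.

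All 7 genes were named, and the 3 genes most like each and the ends of 4 wider lists were named by rule, with receptor and immunoglobulin genes and those of mitochondria or ribosomes excluded and at least 500 UMIs required. The genes and lists were chosen with earlier results of these data known. Doublets were kept in the reported values. As an alternative, cells with the highest Scrublet scores, at 0.8% per 1000 cells, and cells with at least 2 TRB chains were marked, 997 and 2487 cells, since the automatic threshold had marked 0 and 1167. The scripts were tested on simulated data for the comparison over all cells, with 200 altered genes. The direction of 100% was recovered, and the intervals held the true ratio for 95.5%. In cytotoxic-type T cells these values were 100% and 93%. The simulated counts were Poisson draws of the summed UMIs, without spread between cells or mice. They check the calculation, and how often the intervals hold under such spread was not tested. The other alternatives were cell filters, scaling by TMM, CPM averaged over cells, depth, gates and 1 cell per clone. The values without the *Eomes* clones, in T cell classes alone and in all cells with a TRB chain were chosen after seeing the data. So were those of pDCs without CD3 UMIs or a TRB contig. Of the genes on the wider lists, 1 is not named in the text, also where it would stand at an end of a list, and its values are not reported here.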

Additional observations from a re-analysis of the deposited data

Results flagged for a closer look

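The *Tnf* ratio between the libraries lay on opposite sides of 0 in 2 sets of classes with at least 100 cells per library. In pDCs it was 0.46 (log2, dKO over WT), and in cycling T cells it was −1.81, with intervals of 0.27 to 0.65 and −2.30 to −1.35. In Tregs *Tnf* was 2.01-fold lower in the dKO-labelled library. In cytotoxic-type T cells the ratio was −0.75, in other T cells −0.54 and in myeloid cells −0.67, each with an interval below 0. The difference between the classes was not tested, since each genotype has 1 library.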

How the results depend on the processing

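Each genotype had 1 library, so mouse, preparation and genotype cannot be told apart, and no replicate was left out. No paired analysis was possible because each group has 1 sample and no result comes from a test between samples. Of 334 recomputed ratios of the 7 genes in all cells and 4 classes, 244 lay within the counting interval of the reported value. A further 85 lay outside it, and 5 lay on the other side of 0 from a reported value whose interval excludes 0. Where the reported interval includes 0, a change of sign is counted in the 244 or the 85. *Tbx21* in Tregs is such a case, at −0.06 as reported and 0.50 (0.13 to 0.89) with Tregs gated by *Foxp3* alone.

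The *Ifng* ratio over all cells, −1.91, was −1.61 as the mean of each cell's CPM, −2.51 in cells thinned to 2000 UMIs and −1.35 with 1 cell per clone. Chosen after seeing the data, T cell classes alone gave −1.61 and cells with a TRB chain −1.75. In cytotoxic-type T cells it was −1.12 when thinned, −1.17 when Tregs were gated by *Foxp3* alone, which moves their other cells into this class, and −0.73 in cells with a TRB chain. The *Tbx21* ratio there, −0.64, was −0.060 with 1 cell per clone and −0.37 in cells with a TRB chain. Of the 5 ratios counted as on the other side of 0, those with 1 cell per clone were *Stat4* (0.0088) and *Il12rb2* (0.31) in cytotoxic-type T cells. The others were in other T cells, *Stat4* (0.038) and *Eomes* (−1.35) with 1 cell per clone and *Eomes* (−1.14) in cells with a TRB chain. At 1.5-fold, 5 of the 7 genes differed over all cells in place of 3, and 4 in place of 1 in cytotoxic-type T cells, where the count was 2 when thinned and 4 with Tregs gated by *Foxp3* alone. The causes were not tested. The thinned class keeps 257 cells of the dKO-labelled library, which limits the precision of its shares. Before thinning, *Il12rb1* had 64 UMIs there.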

Other observations

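Droplets with a ribosomal protein share under 7% (334 and 394), which resemble nuclei, had *Stat4* at 1577 and 902 CPM, above each class with at least 100 cells. *Tbx21* was at 233 and 112 CPM in them and *Ifng* at 287 and 18.7 CPM. *Stat4* spans 120042 bases on GRCm38, of which 3.23% are exonic. Cells without CD3 UMIs or a TRB contig that had ILC3-type markers (47 and 31) held 16 and 4 *Tnf* UMIs and 0 and 0 *Ifng* UMIs, which allows an *Ifng* level of up to 28.0 and 47.9 CPM. Cells that met no gate (493 and 394) had the NK cell gene *Ncr1* at 199 and 53.5 CPM, with *Ifng* at 188 and 91.0 CPM.

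*Il12a* and *Il27*, which encode chains of IL-12 and IL-27, were at 3.41 and 13.8 CPM and at 0.128 and 0.476 CPM over all cells, and *Il12b*, the other chain of IL-12, at 1.71 and 0.688 CPM. *Cxcl9*, a chemokine that IFN-γ induces, was at 1.41 and 13 CPM, with 10 of 33 and 353 of 493 UMIs in myeloid cells. Values over all cells thus also depend on the shares of these classes.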
